A study of Homo sapiens with 4 samples.

Results

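TIMM23 encodes a core subunit of the inner-membrane TIM23 translocase. In a 10-gene set of mitochondrial protein import genes, it stood furthest apart between T24 cells without and with IGF2BP3. The set was chosen by name, as translocases of the outer and inner mitochondrial membrane, and 10 of 10 names were found among the 58302 genes listed. It holds 6 TIM genes (TIMM23, TIMM17A, TIMM50, TIMM44, TIMM10 and TIMM13) and 4 TOM genes (TOMM20, TOMM22, TOMM40 and TOMM70). The choice also rested on the TIMM23 values themselves, near 0 in knockout and high in control libraries. The knockout-control differences of the 10 genes are therefore given as a description, and counts of them past a threshold support nothing.

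The study sequenced polyA RNA of T24, an established bladder carcinoma line of human origin. The 2 knockout libraries came from T24 cells of genotype IGF2BP3 knockout, made with CRISPR/Cas9 as a stable line, and the 2 control libraries from T24 cells of genotype control. The labels name no other allele, agent or time. Separate cultures or clones are not named either, so the spread within a group may be technical, and all p-values measure only the spread between these samples. IGF2BP3 encodes an RNA-binding protein that binds messenger RNAs, many of them marked with N6-methyladenosine. The question put to these libraries was which transcripts change in T24 after loss of IGF2BP3.

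Almost all mitochondrial proteins are encoded in the nucleus, made in the cytosol and imported. Precursors enter through the TOM complex of the outer membrane, and small TIM chaperones escort hydrophobic precursors across the intermembrane space. The TIM23 complex moves precursors with a cleavable presequence through or into the inner membrane, with an ATP-driven motor on the matrix side, while the TIM22 complex inserts carrier proteins.

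The values are FPKM, a level per length (fragments per kilobase, scaled to library size). Whole reads recovered from them put the libraries at 811823 and 1240207 reads for the knockouts and at 2162179 and 1870884 for the controls, which is shallow. IGF2BP3 itself had FPKM of 0 and 0.190 in the knockouts, against 2.94 and 21.5 in the controls, in the direction of the labels. KRT8, KRT18 and VIM, filaments of cultured carcinoma cells, were above 0 in all 4 libraries. The epithelial markers KRT19, EPCAM and CDH1 and all 4 uroplakin genes, which mark differentiated urothelium, were listed at 0 in every library, as were all 4 leukocyte markers. PPARG, another of the 6 urothelial markers, had 46.1 FPKM in knockout 1 and 6.85 in control 2 and was listed at 0 in the others. GATA3, of the same list, had 0.150 FPKM in control 1 and was listed at 0 in the others. KRT7, also epithelial, had 56.9 and 33.1 FPKM in the knockouts, against 0 and 4.27 in the controls. The hepatocyte marker ALB had 13.7 FPKM in control 2 and 2.72 in knockout 1, and the endothelial marker CDH5 had 2.72 in control 2. The remaining endothelial, hepatocyte and muscle markers were listed at 0 in every library. The summed level of 6 epithelial markers was 1499 and 1163 FPKM in the knockouts, against 439.6 and 575 in the controls, mostly from KRT8 (1138 and 816 in the knockouts, against 266 and 397 in the controls). The sum of the mesenchymal-type genes VIM and CDH2 was 287 and 373 FPKM in the knockouts, against 177 and 183 in the controls. The part of these markers in the results was not tested. In bulk RNA, fewer cells with a transcript and less of it per cell cannot be told apart.

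TIMM23 (ENSG00000265354) lies on the plus strand of chromosome 10, from 45972449 to 46003734 in hg38, with 7 exons. A near-identical copy, TIMM23B, lies on the same chromosome from 49942033 to 49974850. Their sequences are shown because the TIMM23 result rests on reads that must be assigned to one copy or the other. Over the first 514 coding bases the GENCODE sequences differ at 10 positions (98.1% identity), after which they diverge. The stretch from coding base 9 to 128 (spanning an intron, chr10:45972633-45975475 for TIMM23 and chr10:49942203-49945053 for TIMM23B, plus strand) holds 4 of these differences, in capitals:
TIMM23: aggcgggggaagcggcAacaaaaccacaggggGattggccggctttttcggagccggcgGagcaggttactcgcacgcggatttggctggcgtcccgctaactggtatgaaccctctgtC
TIMM23B: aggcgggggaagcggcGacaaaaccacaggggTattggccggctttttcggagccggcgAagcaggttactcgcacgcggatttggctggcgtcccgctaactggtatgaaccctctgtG
Counted from 1 at the first coding base, with the TIMM23 base first, they are A25G, G41T, G68A and C128G.

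The copies also share the sequence before their transcripts. Of 210 bases that end just before the TIMM23 transcript (chr10:45972239-45972448, plus strand), 3 differ from TIMM23B (chr10:49941809-49942018, plus strand), in capitals in these RefSeq sequences of GRCh38:
TIMM23: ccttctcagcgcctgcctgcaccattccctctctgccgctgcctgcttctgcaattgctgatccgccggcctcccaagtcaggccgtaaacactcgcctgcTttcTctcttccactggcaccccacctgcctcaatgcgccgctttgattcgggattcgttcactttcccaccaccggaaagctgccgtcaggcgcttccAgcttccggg
TIMM23B: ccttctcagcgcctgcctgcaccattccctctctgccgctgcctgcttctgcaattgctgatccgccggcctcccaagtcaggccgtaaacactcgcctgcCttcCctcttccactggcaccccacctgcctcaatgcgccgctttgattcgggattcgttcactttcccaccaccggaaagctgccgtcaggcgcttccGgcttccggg

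Of the 1173 windows of 50 bases along the TIMM23 transcript, 974 (83.0%) occurred in no transcript of another gene, and the 199 others occurred in TIMM23B. Beyond window 641 the TIMM23 transcript shared none. Windows were compared by exact match, so a single differing base was enough to set a window apart. By that measure most of the TIMM23 transcript could be told from the copy by a read of that size. The sources used here give neither the read length nor the treatment of reads that align to both. The map of shared windows shows where the copies are alike.

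**Figure D1:**
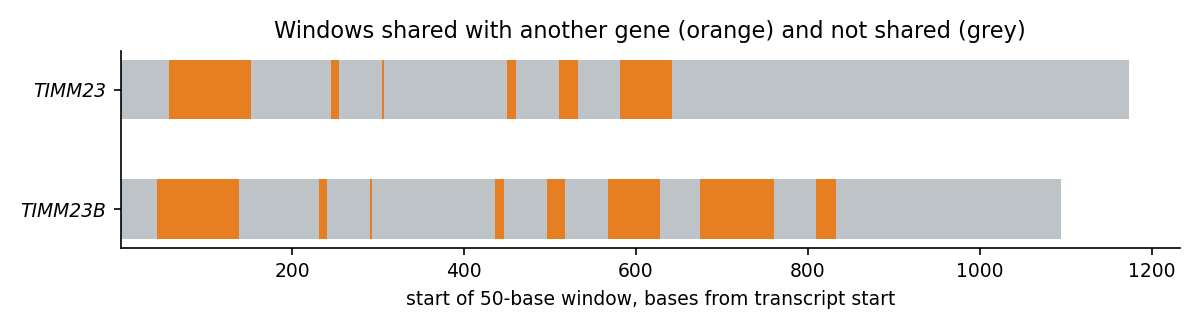
Windows of 50 bases along the principal transcripts of TIMM23 (top) and TIMM23B (bottom), by start position in bases from the transcript start; orange windows occur in a transcript of another gene and grey windows do not. Shared windows of TIMM23 fall in runs between starts 57 and 641, and none of those from 642 to 1173 is shared.

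TIMM23 had FPKM of 0 and 1.32 in the knockouts, against 255 and 63.9 in the controls. These stand for 0 and 2 recovered reads in the knockouts and for 673 and 146 in the controls. Both controls were far above both knockouts, and the controls themselves differed by 1.99 on the log2 scale. Scaled for depth, the reads of the knockouts came to 0.480% of those of the controls (exact 95% interval 0.058 to 1.74%, counting error only). Leaving out control 1 gave 1.25% and leaving out control 2 gave 0.313%. Leaving out knockout 1 gave 0.794%, and leaving out knockout 2 gave 0 with an upper bound of 2.24%. A count of 0 in knockout 1 allows up to 3 reads, which is an FPKM of 3.02 at its depth. The fitted log2 fold change, knockout over control on log2(FPKM + 0.5), was −7.07 ± 1.76 (SE, n = 2 each), and its size depends on the pseudocount.

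The copy was at 0 in 1 library of each group. TIMM23B had FPKM of 0 and 6.15 in the knockouts and of 0 and 11.8 in the controls, or 0 and 20 reads against 0 and 58. Its longest transcript is 2.3 times as long as the principal one, so its level would be higher by that factor if the principal one dominates. With both copies summed, a sum chosen after the data were seen, the knockouts held 22 reads and the controls 877, which is 4.93% after scaling (exact 95% interval 3.07 to 7.51%, counting error only). Leaving out 1 library at a time, this share lay between 0 (upper bound 2.09%, knockout 2 left out) and 9.83% (control 1 left out). TIMM23 and TIMM23B together had 0 reads in knockout 1. In knockout 2 the copy held most of the reads of the pair, and in control 1 it held none.

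Genes near absent in 1 group were counted as a background to TIMM23, which was chosen for that pattern. Of 2801 protein-coding genes with at least 100 reads in both controls, TIMM23 was among 7 (0.250%) with at most 2 reads in each knockout, while 272 had that few in at least 1 knockout. In the opposite direction, 5 of 1507 genes with at least 100 reads in both knockouts (0.332%) had at most 2 in each control: CC2D2A, CXCL1, NDUFB10, ROR1 and ZNF675, named after their values were seen. Of these 1507 genes, 35 had that few in at least 1 control. The knockout libraries are the shallower ones, so the read limits are not equal in FPKM. Recovered values that were not whole entered these counts rounded. Among the 7 this holds for the control values of HDAC8 and JAGN1, named after their values were seen.

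The genes nearest to TIMM23 by Euclidean distance on log2(FPKM + 0.5) over the 4 libraries, among 9624 protein-coding genes tested, were SLC50A1 (distance 1.60), a sugar transporter, ARMC7 (2.08), B3GAT3 (2.29), a glucuronosyltransferase of proteoglycan linkage, PPA1 (2.41), the cytosolic pyrophosphatase, and MINPP1 (2.47), an inositol polyphosphate phosphatase. SLC50A1 had FPKM of 0 and 2.48 in the knockouts, against 160 and 26.3 in the controls. PPA1 had 0 and 2.29 in the knockouts, against 61.4 and 28.97 in the controls. None of the 5 belongs to the import machinery, and their likeness to TIMM23 over these libraries is what chose them.

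**Figure D2:**
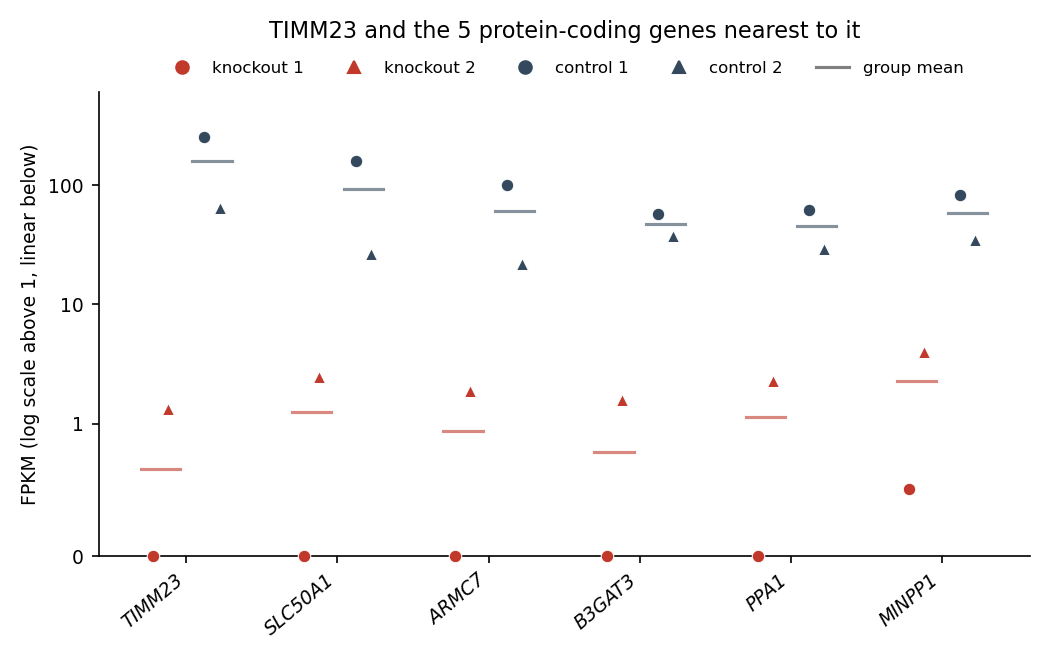
FPKM of TIMM23 and of the 5 protein-coding genes nearest to it, by library (log scale above 1, linear below; horizontal lines are group means of 2 libraries). Knockout values lie between 0 and 4.01 and control values between 21.6 and 255.

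For the partner subunits of TIMM23 in the inner membrane the groups overlapped. TIMM17A, a channel subunit related to TIMM23, had FPKM of 26.4 and 22.7 in the knockouts, against 35.2 and 5.51 in the controls. The knockouts lay between the controls, at a log2 fold change of 0.77 ± 1.40 (SE). TIMM50, which receives presequences as they leave the outer membrane, had 7.17 and 54.2 in the knockouts, against 78.8 and 51.7 in the controls. Knockout 1 alone was low, with 15 reads, and knockout 2 lay between the controls. The log2 fold change of TIMM50 was −1.65 ± 1.08 (SE), and −0.24 without knockout 1. TIMM44, which tethers the matrix import motor to the channel, had 13.3 and 36.9 in the knockouts, against 2.28 and 32.2 in the controls. Here control 1 was the low library, with 11 reads, and the groups overlapped (log2 fold change 1.25 ± 1.56, SE).

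The small TIM chaperones of the intermembrane space gave different pictures. TIMM10 (chr11:57528463-57530803, minus strand), which works in a complex with TIMM9, had FPKM of 179 and 80.6 in the knockouts, against 14.3 and 68.4 in the controls. Both knockouts were above both controls, but knockout 2 exceeded control 2 only narrowly, with 68 reads against 87 in the deeper control. TIMM10 had a log2 fold change of 1.92 ± 0.88 (SE). Its depth-scaled reads in the knockouts were 304% of those in the controls (exact 95% interval 237 to 391%, counting error only), with both libraries of each group. The ratio was 175% when control 1 was left out and 838% when control 2 was. It was 205% when knockout 1 was left out and 455% when knockout 2 was. TIMM13, which pairs with TIMM8A, had 1.25 and 30.2 in the knockouts, against 6.80 and 20.6 in the controls. The 2 TIMM13 values of the knockouts enclosed those of the controls, 2 reads being all that knockout 1 held. Of the exon bases of TIMM13, 15.9% overlap TMPRSS9 on the opposite strand, and 257 of 1973 overlap LMNB2 on the same strand. Its reads are therefore uncertain. Its log2 fold change was −0.76 ± 1.88 (SE).

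Of the outer-membrane genes, TOMM70 was below the controls in both knockouts, and the groups overlapped for the other 3. TOMM70 (chr3:100363431-100401398, minus strand), a receptor for carrier and other hydrophobic precursors, had FPKM of 3.91 and 0.549 in the knockouts, against 51.2 and 11.2 in the controls. Those are 14 and 3 reads in the knockouts and 488 and 92 in the controls, with no overlap between the groups. Depth-scaled reads of TOMM70 in the knockouts were 5.76% of those in the controls (exact 95% interval 3.33 to 9.30%, counting error only). With control 2 as the only control it was 16.8%, and with control 1 as the only control 3.67%. Knockout 1 alone gave 11.99% and knockout 2 alone gave 1.68%. The log2 fold change of TOMM70 was −3.51 ± 2.12 (SE). Its exons overlap those of LNP1, on the opposite strand, over 3.8% of their bases.

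TOMM40, the beta-barrel channel through which nearly all precursors pass, had FPKM of 52.7 and 63.3 in the knockouts, against 45.2 and 71.5 in the controls. The knockouts lay between the controls in this gene, which had the most reads of the 10 in knockout 1 and in knockout 2, at 146 and 268. Of its windows of 50 bases 77.0% occurred in no other gene, and most of the others occurred in AC093724.1, so part of its reads may be uncertain. Its log2 fold change was 0.02 ± 0.90 (SE), and the depth-scaled read ratio was 103% (exact 95% interval 91.1 to 116%, counting error only). TOMM20, the presequence receptor, had 4.73 and 16.2 in the knockouts, against 15.0 and 23.0 in the controls, with knockout 1 low and knockout 2 between the controls (log2 fold change −1.03 ± 1.63, SE). TOMM22, the central receptor that organises the complex, had 5.43 and 19.0 in the knockouts, against 3.85 and 14.4 in the controls. In TOMM22 each group held 1 lower and 1 higher library, and the gap within each group exceeded the log2 fold change of 0.42 ± 1.90 (SE).

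**Figure D3:**
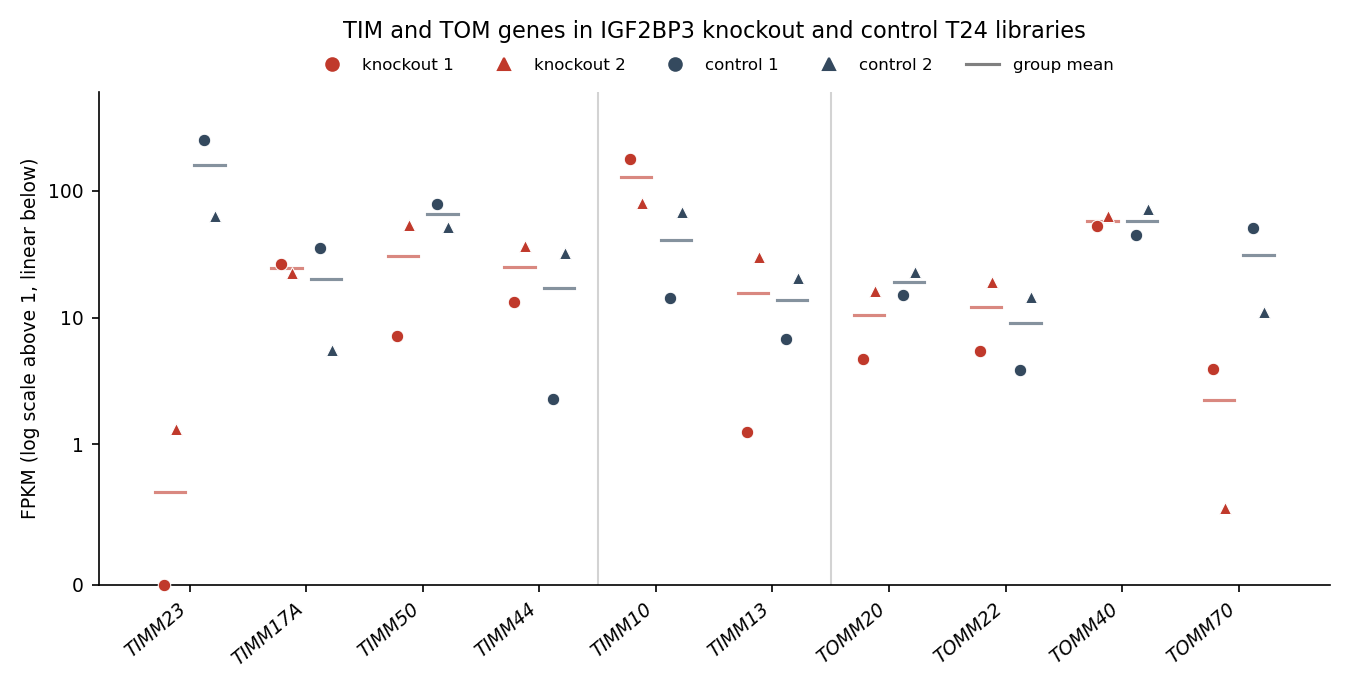
FPKM of the 10 genes by library (log scale above 1, linear below; horizontal lines are group means of 2 libraries), with the TIM23 complex and its motor anchor on the left, the small TIM chaperones in the middle and the TOM genes on the right. TIMM23 (0 and 1.32 in knockouts, 255 and 63.9 in controls) and TOMM70 are below the controls in both knockouts, TIMM10 is above them, and the other 7 genes overlap.

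Taken as a set, the 10 genes were split evenly, with 5 fitted above 0 and 5 below. The median of their log2 fold changes was −0.37 and that of the absolute values 1.14. Over all 11463 genes tested these medians were −0.08 and 1.38. Of the 10, 0 passed an adjusted p of 0.05 in limma, where 0.0872% of all genes tested did, 0.0611% as higher and 0.0262% as lower in the knockouts (2 of the 10, and 448 of all (3.91%), had an unadjusted p under 0.05, and 0 of the 10 passed in limma-voom on recovered reads). Because TIMM23 was chosen on this contrast, nothing is read from these counts. Groups did not overlap for 3 of the 10, TIMM23, TOMM70 and TIMM10, against 26.5% of all genes tested. Below the controls were 2 (14.4% of all genes tested) and above them 1 (12.1%).

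Replicates lay far apart. For the 10 genes the median gap on log2(FPKM + 0.5) was 1.69 between the knockouts and 1.88 between the controls, and over all genes tested it was 1.89 and 1.60. The gaps were smallest for TIMM17A (0.21) and TOMM40 (0.26) in the knockouts and largest for TIMM13 (4.14). In the controls they ran between 0.60, for TIMM50 and TOMM20, and 3.55, for TIMM44. In 1 of the 10 genes, TIMM23, a library was listed at 0, whereas 49.4% of all genes tested were at 0 in some library. These zeros were uneven between libraries. Of all genes tested, 34.7% were at 0 in knockout 1, where TIMM23 was, and 13.9% in knockout 2. The shares were 28.3% in control 1 and 12.3% in control 2.

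**Figure D4:**
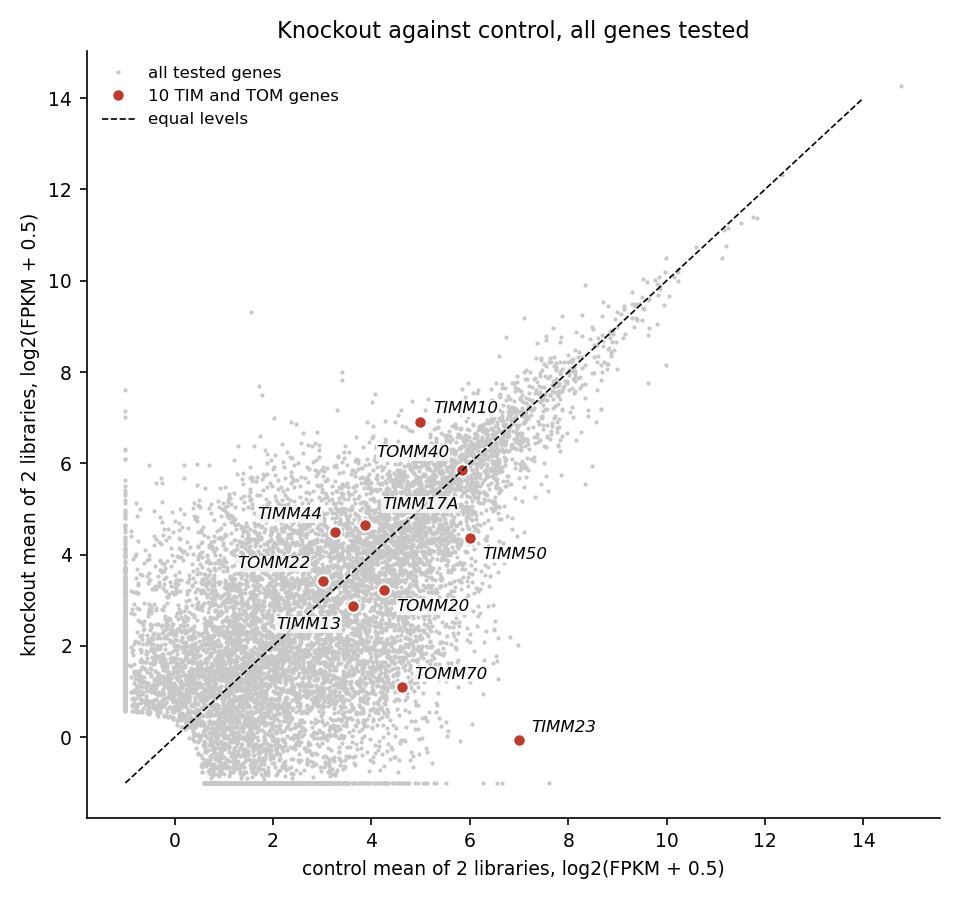
Knockout mean (vertical) against control mean (horizontal) of log2(FPKM + 0.5) over 2 libraries each, for 11463 genes tested (grey) and the 10 TIM and TOM genes (red); the dashed line marks equal levels. TIMM23 (difference −7.07) and TOMM70 (−3.51) lie below the line, TIMM10 (1.92) lies above it, and TOMM40 (0.02) is nearly on it.

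The order of levels differed between the groups. In the knockouts TIMM10 was the highest of the 10, at 130.0 ± 69.8 FPKM (SD, n = 2), with a range apart, on the deposited scale, from that of TOMM40, the second, at 58.0 ± 7.51. TOMM40, TIMM50, TIMM44, TIMM17A, TIMM13, TOMM22 and TOMM20 followed in that order, each range overlapping that of its neighbour. TOMM70 at 2.23 ± 2.38 and TIMM23 at 0.660 ± 0.933 were the lowest. The range of TOMM70 lay below that of TOMM20, the next above it, and overlapped that of TIMM23. In the controls TIMM23 led, at 159 ± 135 FPKM, followed by TIMM50, TOMM40, TIMM10, TOMM70, TIMM17A, TOMM20, TIMM44, TIMM13 and TOMM22, and the ranges of all neighbours overlapped. TIMM23 made up 0 and 0.406% of the summed FPKM of the 10 genes in the knockouts, against 50.2 and 17.6% in the controls. Without TIMM23 the sum was 294 and 324 FPKM in the knockouts, against 253 and 298 in the controls.

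These levels rest on the longest annotated transcript of each gene. For TOMM40 that transcript is 1.98 times as long as the principal one, and for TIMM17A 1.52 times, a noncoding form. The levels of these 2 genes would be higher by those factors if the principal transcript dominates, and the knockout values of TOMM40 would then fall within the range of TIMM10. For 6 of the others the longest transcript is the principal one, and TIMM44 (1.07) and TIMM50 differ from it little. The members lie on chromosomes 1, 3, 10, 11, 19 and 22, with 4 of the 10 on chromosome 19. None of 10 annotated pseudogenes named after members was above 0 in any library.

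The upstream sequences of the 10 genes were compared for motifs of factors known to act on nuclear genes of mitochondria, on both strands of the 250 bases before the RefSeq start (GRCh38.p14). The letters CCGGAAG, a core of ETS-family sites, occurred before 5 of the 10 (TIMM23, TIMM10, TIMM13, TOMM20 and TOMM70), and in 8.52% of 35116 promoters of the same length. A core of NRF1 sites occurred before TOMM20 and TOMM40, and in 5.07% of all promoters. A core of YY1 sites occurred before 0 of the 10 and in 0.373% of all promoters. The median GC content was 64.6% before the 10 genes and 58.0% before all. The GENCODE gene bounds used for gene positions begin before the RefSeq start for all 10 genes. By those bounds the stretches of TIMM13, TIMM44, TIMM50, TOMM40 and TOMM70 lie wholly inside the gene, and the rest overlap it in part. No motif match is a measured binding site.

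The other genes of the import pathway, 37 in a list of complexes drawn up by role, were compared in the same fit. Of the 37, 34 reached the mean FPKM of 1 needed for the test, and 0 of these passed (adjusted p between 0.940 and 1 in limma, with 2 at an unadjusted p under 0.05, and 0 passing in limma-voom). The fit placed 14 above 0 and 20 below, with a median log2 fold change of −0.26. Groups did not overlap for 7 genes below and 6 above the controls, against 14.4% and 12.1% of all genes tested. TOMM6 and TOMM20L were listed at 0 in all libraries. At 0 in some library were 58.8% of the 34.

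Relatives of TIMM23 and partners of the small TIMs showed the same unevenness. TIMM17B, the paralog of TIMM17A, had FPKM of 6.45 and 1.06 in the knockouts, against 5.15 and 5.95 in the controls. TIMM9, the partner of TIMM10, had 101 and 1.81 in the knockouts and was listed at 0 in both controls (adjusted p = 0.955 in limma). TIMM8A, the partner of TIMM13, had 81.4 and 20.4 in the knockouts, against 0 and 16.1 in the controls, and was 1 of the 2 with an unadjusted p under 0.05 (log2 fold change 3.84 ± 1.77, SE, adjusted p = 0.955 in limma). TIMM8B, a paralog of TIMM8A, had 0 and 6.28 in the knockouts, against 0 and 23.1 in the controls. TIMM10B, a further small TIM chosen after its values were seen, had 0 and 5.68 in the knockouts, against 0.651 and 0.376 in the controls. Of the 6 small TIM genes, 3 (TIMM10, TIMM9 and TIMM8A) were above both controls in both knockouts, where 12.1% of all genes tested were, and the other 3 overlapped. For TIMM9 this rests on 3 reads in knockout 2 against 0 in each control, which is no more than a count of 0 allows. TOMM40L, the paralog of TOMM40, had 35.3 in knockout 2 and no more than 0.952 in any other library.

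The sorting and assembly (SAM) machinery of the outer membrane inserts beta-barrel proteins such as TOMM40. It was below the controls in both knockouts for 4 of its 4 genes, where 14.4% of all genes tested were. Their median log2 fold change of −3.10 was the lowest among the complexes in the list, and the complex as a whole was not tested. In knockout 1, 3 of the 4 were at 0, as were 34.7% of all genes tested. SAMM50, the SAM channel, had FPKM of 0 and 1.74 in the knockouts, against 1.85 and 6.09 in the controls. Its knockout 2 and control 1 were close, at 7 reads against 13. The metaxins MTX1 and MTX2, which were chosen after their values were seen, stood at 0 in both knockouts and had 32.1 and 2.49 (MTX1) and 51.7 and 3.36 (MTX2) in the controls. MTX3, also chosen after its values were seen, had 1.00 and 0.655 in the knockouts, against 1.88 and 2.08 in the controls. These are low levels, at a log2 fold change of −0.91 ± 2.78 (SE). None of the 4 passed (adjusted p = 0.955 for SAMM50, MTX1 and MTX2 and 0.991 for MTX3 in limma). Control 2 held only 12 reads of MTX1 and 10 of MTX2, so the high level rests on control 1.

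Other steps were represented by genes fixed by role. TIMM22, the channel for carrier proteins, had FPKM of 34.3 and 18.7 in the knockouts, against 56.2 and 34.6 in the controls, groups that nearly touched. HSPA9, the mitochondrial HSP70 of the import motor, had 118 and 122 in the knockouts, against 116 and 59.7 in the controls, and PMPCB, the catalytic subunit of the presequence protease, had 41.9 and 5.87 in the knockouts, against 35.9 and 6.92 in the controls. CHCHD4, the oxidoreductase that traps small TIMs in the intermembrane space, had 1.54 and 1.51 in the knockouts, against 0.577 and 6.00 in the controls. OXA1L, an inner-membrane insertase, was listed at 0 in knockout 1 and had 16.6 in knockout 2, against 9.18 and 8.64 in the controls. The adjusted p of these 5 genes lay between 0.955 and 1 in limma.

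TOMM7, GFER and TIMM29, also chosen after their values were seen, had groups that did not overlap. TOMM7, a small subunit of the TOM complex, had FPKM of 49.1 and 44.6 in the knockouts, against 0 and 0.687 in the controls, or 31 and 43 reads against 0 and 1 (log2 fold change 5.94 ± 2.28, SE, adjusted p = 0.940 in limma). GFER, which reoxidises CHCHD4, had 24.2 and 11.7 in the knockouts and was listed at 0 in both controls. TIMM29, a TIM22 subunit, was listed at 0 in both knockouts and had 7.46 and 7.88 in the controls, from 23 and 21 reads. None of the 3 passed the threshold.

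**Figure D5:**
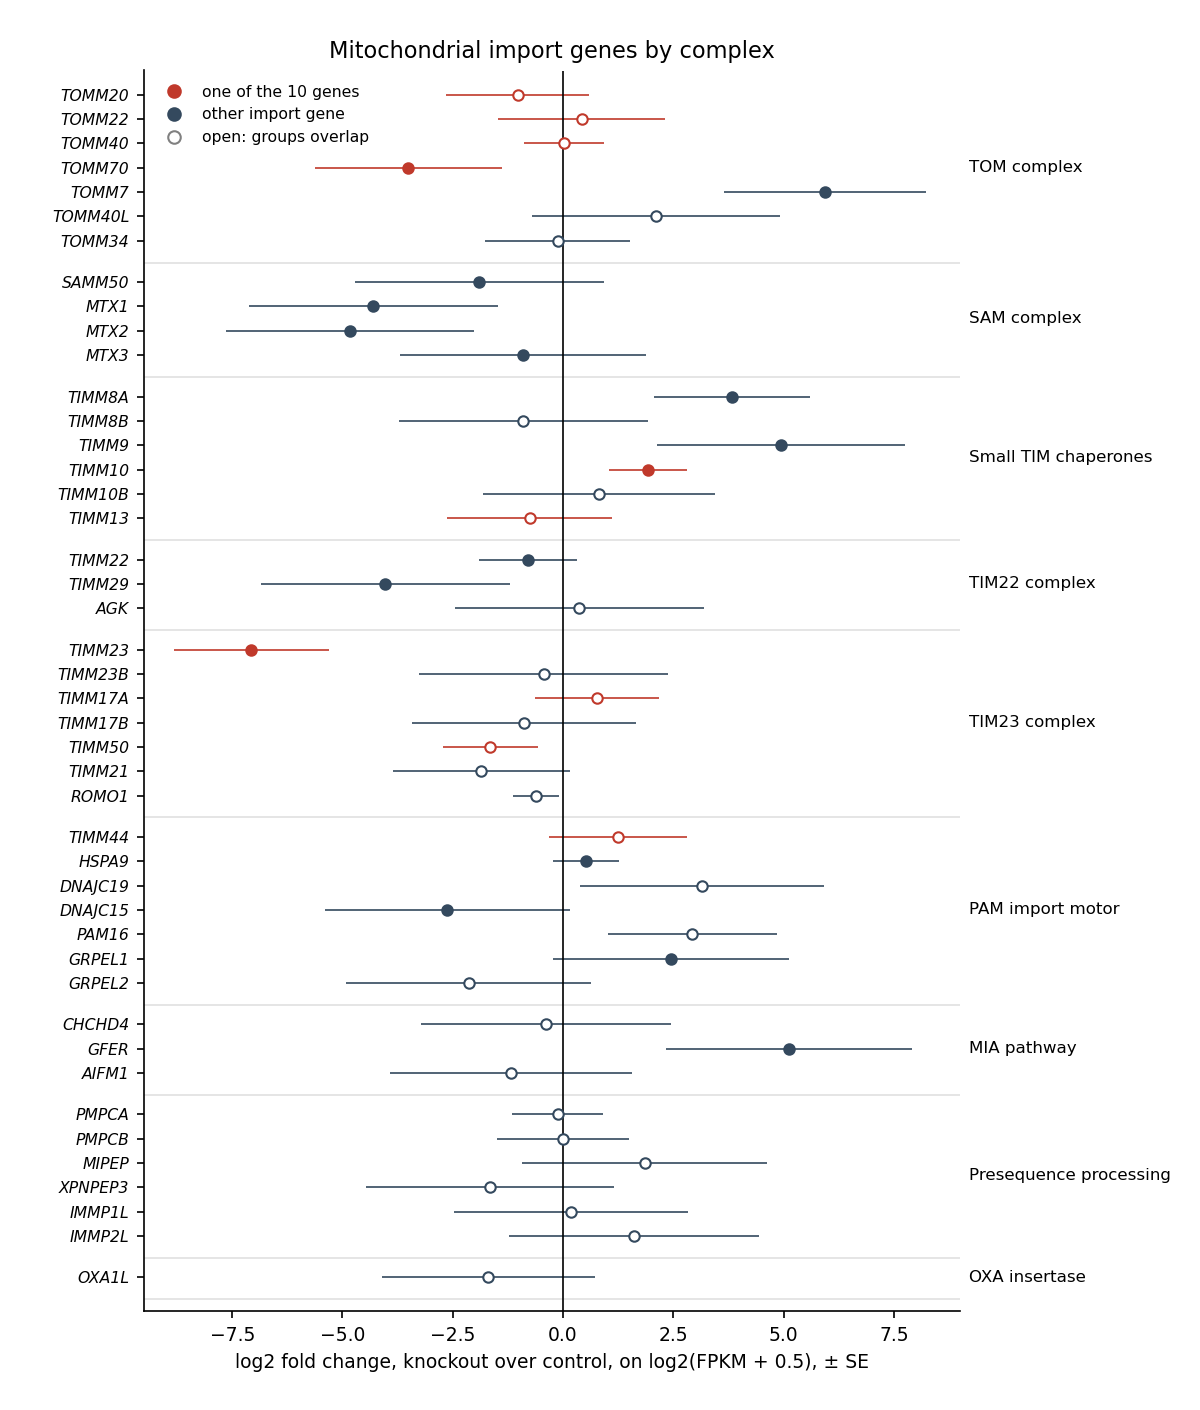
Log2 fold change, knockout over control on log2(FPKM + 0.5), with its SE, for the 44 import genes tested, grouped by complex; red marks the 10 TIM and TOM genes, and filled points mark genes whose groups do not overlap. TIMM23 (−7.07) is furthest left and TOMM7 (5.94) furthest right, and the 4 genes of the SAM complex all lie left of 0.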

How the data were processed

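RNA-seq of polyA RNA (Trizol extraction and Illumina TruSeq libraries, per the labels' protocols) was analysed for 2 knockout and 2 control libraries of T24. The authors deposited FPKM per Ensembl gene, with HTSeq in the file names and hg38 as the build in the submitters' processing notes. The sources used here give no aligner, annotation release, strand setting or duplicate removal. GENCODE 29 names matched 58039 of 58302 genes. FPKM times the longest transcript length gave whole reads for 96.4 to 96.5% of genes above 0 (tolerance 0.001). Intervals and floors from these reads cover counting error only. Genes with mean FPKM of at least 1 (11463) were fitted with limma 3.58.1 in R 4.3.3 (eBayes with trend) on log2(FPKM + 0.5), which understates changes of low genes. Tests were two-sided with Benjamini-Hochberg adjustment over all genes tested, at a threshold of 0.05. The fit was tested on simulated data. The simulated spread between replicates was a fixed setting, not taken from these libraries, so that test does not show how the fit does here. Named genes are the 10 members, paralogs and partners of members, 1 gene for each further import step, any import gene past the threshold, member pseudogenes with reads, IGF2BP3, and the 5 genes nearest to TIMM23. Other genes named are said in the text to be chosen after their values were seen, or are markers or overlapping genes. Members and lists were chosen with earlier results of these data known. Alternatives covered pseudocount, filter, scaling, moderation, a replicate block, limma-voom, each library left out and, added after the data were seen, the sum of TIMM23 and TIMM23B. Python 3.11.15 with numpy 2.4.6, pandas 2.3.3, scipy 1.17.1, Biopython 1.88 and matplotlib 3.10.9 did the joins, sequence comparisons and figures.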

Additional observations from a re-analysis of the deposited data

How the results depend on the processing

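The log2 fold change of TIMM23 (−7.07) lay between −8.40 and −6.40 over the alternatives that kept all libraries. With 1 library left out it lay between −8.06 and −6.08. For TIMM23 and TIMM23B summed the value was −6.13. Of the 10 genes, 0 passed, but 1 (TIMM23) passed with a pseudocount of 1 and 1 (TIMM23) with upper-quartile scaling. The cause was not tested, and nothing is read from these counts, since TIMM23 was chosen on this contrast. The count over all genes, 10, was 0 without the trend in eBayes (415 at an unadjusted p under 0.05) and 0 with any 1 library left out (578 to 1017), where fewer samples enter the fit and the remaining single library is taken to vary as the other group does. It lay between 7 and 14 under the other alternatives. The other import genes gave 0 calls under every alternative run. With 1 library left out, values spanned −2.83 to 1.31 for TIMM13, −0.52 to 2.05 for TIMM17A, −0.52 to 3.03 for TIMM44, −0.47 to 1.30 for TOMM22 and −0.31 to 0.35 for TOMM40, each turning sign (TOMM40 also with upper-quartile scaling, −0.01), while TOMM70 (−4.59 to −2.44), TIMM10 (0.81 to 3.03), TIMM50 (−3.07 to −0.24) and TOMM20 (−1.87 to −0.20) did not. Deviations of samples that share a replicate number in the labels were not correlated (−0.004 across 11463 genes). This cannot show whether those samples were prepared as pairs. With the replicate block 14 genes and 0 of the 10 passed. Few reads limit TIMM23, TOMM70, TIMM13, TOMM20, TOMM22 and TIMM50, each at 15 reads or fewer in at least 1 knockout. They also limit TIMM44, at 11 reads in control 1, the deepest library, where TOMM22 had 17 and TIMM10 had 21. The part of depth in these low counts was not tested.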
